A study of Mus musculus with 2 samples.

Results

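The lens crystallins are the abundant soluble proteins of the eye lens, and 10 of their genes were followed here in medullary thymic epithelial cells (mTECs). The members were the rows of the deposited gene table whose symbol was Cryaa, Cryab, Cryba1, Cryba2, Cryba4, Crybb1, Crybb2, Crybb3, Cryga or Crygs, 10 of 23997 rows. All 10 symbols were found, each in 1 row. Polyadenylated RNA of sorted mTECs with high MHC class II, from pools of C57BL/6 mice, was sequenced in 2 libraries. One library was labelled WT and the other Aire-KO (genotype Aire-/-), and they are called the WT-labelled and the KO-labelled library. The sources used here give neither the age and sex of the mice, nor how many were pooled, nor which Aire allele they carried. With 1 library per genotype no difference has a replicate check, and every interval below covers counting error only.

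Crystallins form separate protein families. The alpha-crystallins are small heat shock proteins that keep other lens proteins from aggregating, and the beta- and gamma-crystallins are structural proteins built from Greek key folds that pack densely and give the lens its refractive power. Mature mTECs transcribe many genes of peripheral tissues so that developing T cells meet those proteins in the thymus, and many of those transcripts depend on the nuclear protein Aire. Lens proteins are classical examples of antigens that are otherwise largely restricted to 1 organ.

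Each level is given as FPKM, a fragment count scaled to transcript length and library size, which allows comparison between genes of different length. The depth behind them was estimated from the low values, which mostly fall on whole multiples of 1 fragment, at about 46400000 fragments in the WT-labelled library and 52800000 fragments in the KO-labelled library. The targeted gene, Aire, was listed at 220.6 FPKM in the WT-labelled library and 640.2 FPKM in the KO-labelled library. It was thus not lower in the KO-labelled library, and because a gene-level value covers the whole transcript and the allele is not given, it does not check the label. Both libraries held mTEC transcripts. Of 14 mTEC marker genes, 13 were neither lower nor higher by 2-fold and Aire was higher, with a median log2 ratio of 0.33. The most expressed, the MHC class II gene H2-Aa, stood at 8398 and 11948 FPKM.

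A gene was called lower or higher in the KO-labelled library at a 2-fold difference of (FPKM + 0.1), with a mean of at least 0.5 FPKM over the 2 libraries. Size alone set these calls, and no test stands behind them. All 10 crystallin genes reached that mean. Of these, 8 were lower, 0 higher and 2 neither, beside 20.5% of 15906 genes lower and 7.09% higher by the same rule. At 4-fold, 5 of the 10 were lower, beside 11.9% of all genes, and 0 were higher, beside 0.629%. The median log2 ratio of the 10 was -3.04, and that of all 15906 genes was 0.05. Among genes whose level in the WT-labelled library lay within the range of the crystallins, 19.8% were lower. The 10 genes were chosen with earlier results of these libraries known, so their count is a description. In a bulk library, fewer cells that transcribe a gene and less RNA of it per cell cannot be told apart.

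**Figure D1:**
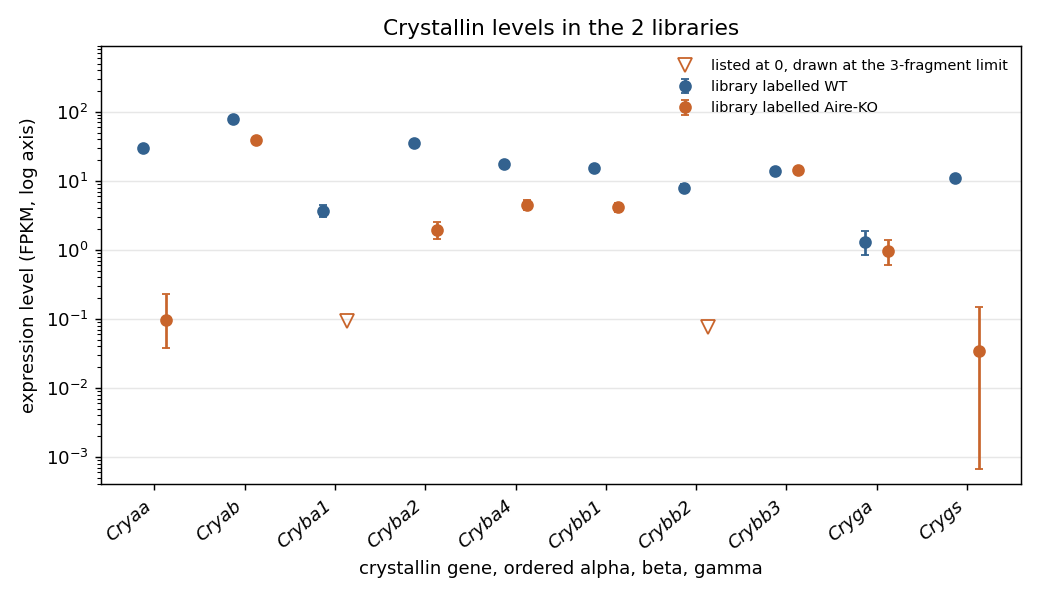
Expression level of each crystallin gene (FPKM, log axis) in the WT-labelled library (blue) and the KO-labelled library (orange). Points are single libraries, bars are exact Poisson 95% intervals of the estimated fragments, and open triangles mark genes listed at 0, drawn at the limit that 0 fragments allow. Levels run from 1.29 to 79.6 FPKM in the WT-labelled library and from listed at 0 to 39.0 FPKM in the KO-labelled library.

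The alpha-crystallins diverged. Cryaa, the alpha-A subunit, which is largely confined to the lens (chromosome 17, 31677931 to 31681730, mm10), stood at 30.1 FPKM (95% Poisson interval 28.6 to 31.7) in the WT-labelled library. In the KO-labelled library it stood at 0.0964 FPKM (0.0381 to 0.226), which rests on 6 estimated fragments against 1519. The Cryaa level was therefore 313 times lower, a log2 ratio of -8.29 without a pseudocount (95% counting interval -9.63 to -7.06). The log2 ratios of single crystallins given below, with their intervals, are also without a pseudocount. Cryab, the alpha-B subunit, is also made in muscle, heart and many stressed cells (chromosome 9). It stood at 79.6 FPKM in the WT-labelled library and 39.0 FPKM in the KO-labelled library, the highest level of the 10 genes in both. Its log2 ratio of -1.03 lay at the edge of the 2-fold rule, and its interval (-1.12 to -0.94) extended to either side of that edge. The file lists Cryab and its neighbour Hspb2 under the same interval (50751072 to 50756635), and the sources used here do not say whether counting used the strand.

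All 3 acidic beta-crystallins were lower. Cryba2 (chromosome 1, 74889934 to 74893143) was the most abundant of them, at 35.0 FPKM in the WT-labelled library and 1.91 FPKM in the KO-labelled library, a log2 ratio of -4.20 (-4.60 to -3.80). Cryba4 (chromosome 5, 112246533 to 112252502) stood at 17.5 and 4.44 FPKM, in the same order, a log2 ratio of -1.98 (-2.25 to -1.71). Cryba1, whose messenger encodes both the beta-A3 and the beta-A1 protein (chromosome 11, 77718732 to 77725293), stood at 3.67 FPKM in the WT-labelled library and was listed at 0 in the KO-labelled library. A count of 0 fragments allows up to 0.0919 FPKM there (3 counts), so the Cryba1 level in the WT-labelled library, 104 estimated fragments, was far above that limit.

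The basic beta-crystallins were uneven, and all 3 of their genes lie on chromosome 5. Crybb1 (112255821 to 112269582) stood at 15.5 FPKM in the WT-labelled library and 4.15 FPKM in the KO-labelled library, a log2 ratio of -1.90 (-2.17 to -1.64). Crybb2, a major beta-crystallin of the adult lens (113058265 to 113068766), stood at 7.96 FPKM, or 272 estimated fragments, in the WT-labelled library and was listed at 0 in the KO-labelled library, where 0 fragments allow up to 0.0762 FPKM. Crybb3 (113075839 to 113081584) stood at 13.8 and 14.2 FPKM. Its log2 ratio of 0.04 had an interval of -0.15 to 0.24, which holds 0 and, for counting error alone, excludes a 2-fold difference in either direction. Crybb3 was the only crystallin of the 10 listed at a higher level in the KO-labelled library, and this sign was not stable. With that library rescaled so that all genes had a median log2 ratio of 0, the ratio of Crybb3 was -0.01.

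The gamma family was split as well. Crygs, the gamma-S protein of the lens cortex (chromosome 16, 22805203 to 22811410), stood at 11.1 FPKM in the WT-labelled library and 0.0343 FPKM in the KO-labelled library. The latter rests on 1 estimated fragment against 361, so the log2 ratio of -8.33 has a wide interval (-14.01 to -6.22). Cryga, a gamma-crystallin of the lens fibre core (chromosome 1, 65100389 to 65103363), was the least abundant of the 10 in the WT-labelled library. It stood at 1.29 and 0.954 FPKM, on 27 and 23 estimated fragments, with a log2 ratio of -0.43 (-1.32 to 0.41). This interval holds both no difference and a 2-fold lower level. Cryga belongs to a group of closely similar gamma-crystallin genes, and its value is uncertain where reads are shared between them.

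**Figure D2:**
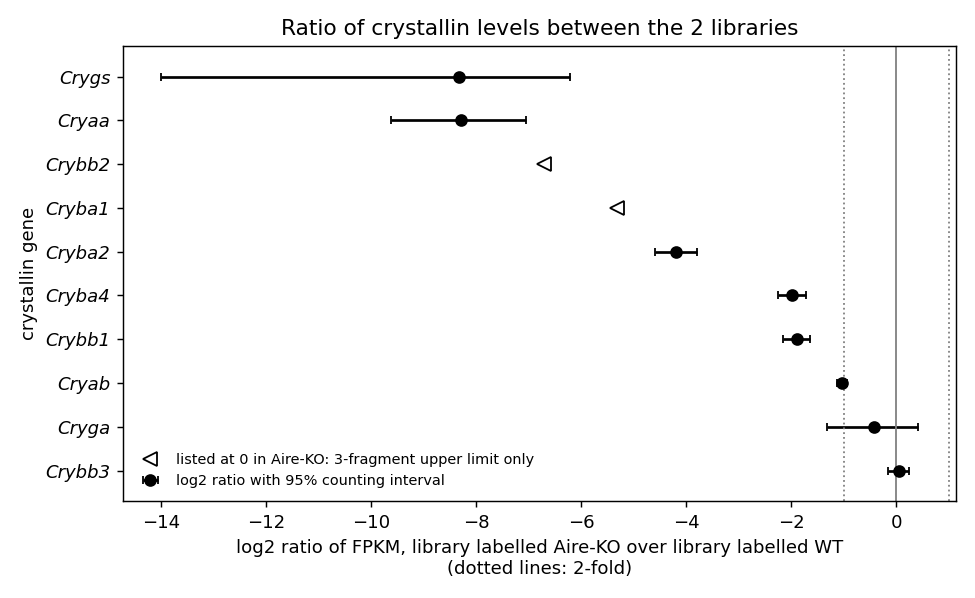
Log2 ratio of FPKM, without a pseudocount, of each crystallin gene in the KO-labelled library over the WT-labelled library. Bars are 95% counting intervals, open triangles mark upper limits (3 fragments) for genes listed at 0 in the KO-labelled library, and dotted lines mark 2-fold. Ratios run from -8.33 (Crygs) to 0.04 (Crybb3).

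The order of the crystallins changed between the libraries. In the WT-labelled library, Cryab was followed by Cryba2, Cryaa, Cryba4, Crybb1, Crybb3, Crygs, Crybb2, Cryba1 and Cryga. The Poisson intervals overlapped between Cryba4 (16.02 to 19.07 FPKM) and Crybb1 (14.2 to 16.9 FPKM) and between Crybb1 and Crybb3 (12.5 to 15.2 FPKM), so those neighbours were not separated by counting error. In the KO-labelled library, Cryab was followed by Crybb3, Cryba4, Crybb1, Cryba2, Cryga, Cryaa and Crygs, with Crybb2 and Cryba1 listed at 0. There the intervals of Cryba4 and Crybb1 again overlapped, as did those of Cryaa and Crygs. Summed over the 10 genes, the level was 215.5 FPKM in the WT-labelled library and 64.9 FPKM in the KO-labelled library. Cryab made up 36.9% of the former and 60.2% of the latter. Crybb3 went from 6.42% to 22.0% of the sum, while Cryaa went from 14.0% to 0.149%. Of the 10 genes 2 were listed at 0 in the KO-labelled library, beside 1.62% of all genes that reached the minimum mean.

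Isoforms were listed for 3 members with more than 1 RefSeq transcript. For Cryaa, NM_001278570 encodes the usual protein of 173 residues, and NM_013501 encodes a rodent form of 196 residues with an inserted exon. In the WT-labelled library they were listed at 24.2 and 5.92 FPKM, 80.3% and 19.7% of the gene. Whether the form of 196 residues was present was not tested apart from this division of reads. In the KO-labelled library the gene rested on 6 fragments, and the shares were not resolved. The remaining Cryaa transcript, NM_001278569, was listed at 0 in the former and below 1 fragment in the latter. For Cryab, NM_001289784 stood at 29.5 FPKM in the WT-labelled library and 8.47 FPKM in the KO-labelled library, whereas NM_001289782 stood at 7.10 and 7.06 FPKM. NM_001289785 (17.4 and 11.5 FPKM) and NM_009964 (25.6 and 12.04 FPKM) lay between these. As listed, NM_001289782 made up 8.92% and 18.1% of Cryab. For Crybb3, NM_001159650 stood at 5.41 and 8.21 FPKM and NM_021352 at 8.41 and 6.04 FPKM. Neither Crybb3 transcript differed by 2-fold, and NM_001159650 was listed at 39.2% and 57.6% of the gene. The error of dividing reads between overlapping isoforms was not measured, so no difference between transcripts of a gene is read from these values.

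Pairs of crystallin genes that lie side by side either differed alike or did not. Cryba4 and Crybb1 lie head to head, 3318 bp apart, and are transcribed away from each other. Their levels were alike in both libraries, and their log2 ratios differed by -0.08 (95% interval from counting error -0.45 to 0.29). The next gene beyond Crybb1, the tyrosylprotein sulfotransferase gene Tpst2, 7124 bp away, stood at 19.1 and 17.1 FPKM and was neither lower nor higher. Further along the same chromosome, Crybb2 and Crybb3 lie 7072 bp apart on the same strand. Crybb2 was listed at 0 in the KO-labelled library while Crybb3 was not lower, so these close neighbours did not share a direction or a size of difference. On chromosome 1, Cryga lies 18098 bp from Crygb at the end of a row of gamma-crystallin genes. There Crygb stood at 2.04 FPKM and Crygc at 1.06 FPKM in the WT-labelled library, on 44 and 30 estimated fragments, and both were listed at 0 in the KO-labelled library. Cryga kept 23 fragments in that library.

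**Figure D3:**
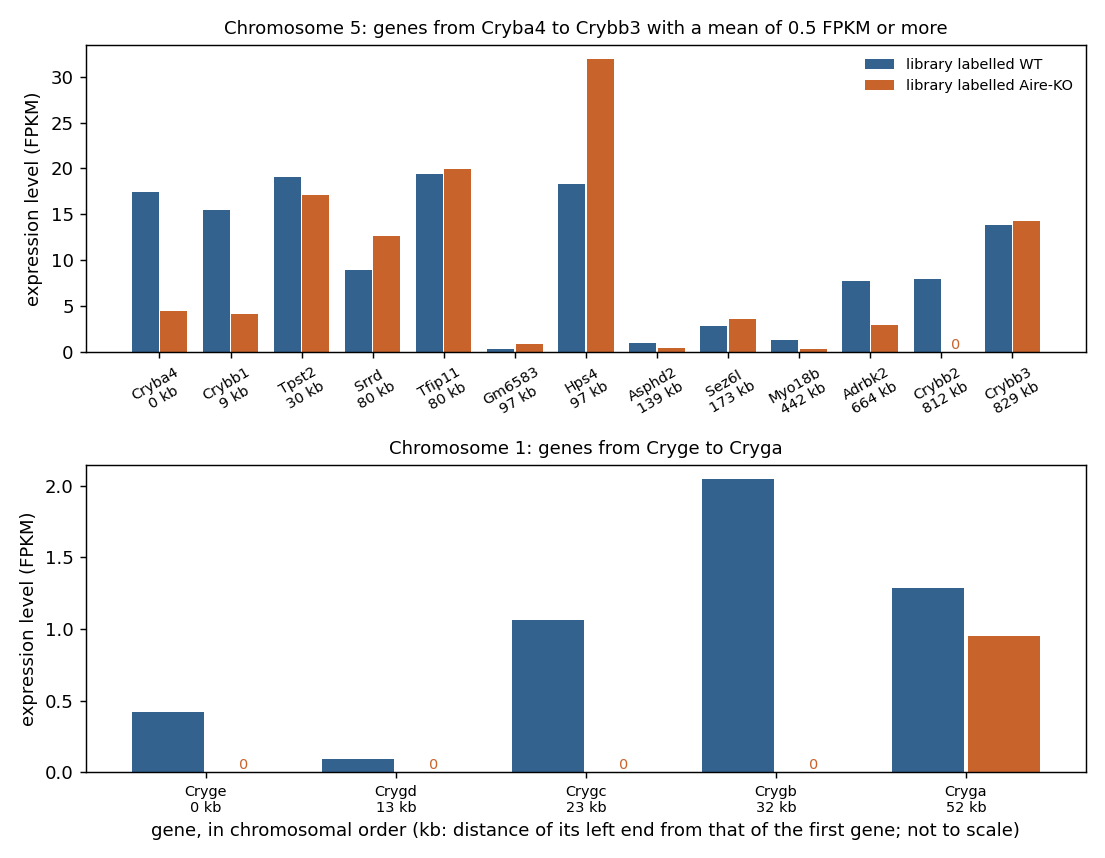
FPKM in the WT-labelled library (blue) and the KO-labelled library (orange) for genes averaging at least 0.5 FPKM from Cryba4 to Crybb3 on chromosome 5 (top) and for the gamma-crystallin genes from Cryge to Cryga on chromosome 1 (bottom), in chromosomal order. Bars are single libraries and 0 marks a gene listed at 0. Cryba4 and Crybb1 are both lower, Crybb2 is listed at 0 beside Crybb3 at 14.2 FPKM, and Cryga is the gamma gene of its row with a value in the KO-labelled library.

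The other genes around the crystallins were mixed. Taking the 2 nearest rows on each side of every member, 25 genes other than crystallins reached the minimum, and 9 of them were lower, 0 higher and 16 neither. Those 9 are 36.0% of the neighbours, beside 20.5% of all genes. Fev, a transcription factor gene of serotonin neurons 4525 bp from Cryba2, stood at 1.60 FPKM in the WT-labelled library and was listed at 0 in the KO-labelled library. In contrast Nufip2, an RNA-binding protein gene 765 bp from Cryba1, stood at 6.29 and 9.52 FPKM. Tbccd1, a centrosome protein gene 1804 bp from Crygs, stood at 6.00 and 5.88 FPKM. Hspb2, the small heat shock protein gene beside Cryab, stood at 13.9 and 14.9 FPKM. The gene nearest to Cryba1 and the gene nearest to Crygs were thus not lower, but each crystallin also had a lower neighbour further away. These were Pipox near Cryba1 (6.87 and 2.62 FPKM) and Ahsg near Crygs (2.47 and 0.725 FPKM). Crybb3 and Cryga, which were not lower, had nearby genes on the same strand that were neither. For Crybb3 this was 2900026A02Rik, 4738 bp away (20.1 and 14.0 FPKM). For Cryga it was D630023F18Rik, 1921 bp away (2.85 and 4.94 FPKM). A link between the values of these neighbours and of the crystallins was not tested. Every measured neighbour of Cryba2 was lower, Cdk5r2 (2.04 and 0.859 FPKM) and Ccdc108 (1.58 and 0.0465 FPKM) as well as Fev. The remaining lower neighbours were Cbs near Cryaa, Miat near Cryba4 and Crybb1, Myo18b near Crybb2, and Adrbk2. Adrbk2 (7.78 and 2.91 FPKM) was a neighbour of both Crybb2, which was lower, and Crybb3, which was not.

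The promoter windows of the crystallins are shown so that lower members, which lay on 6 chromosomes, can be set beside members that were not lower. RefSeq windows (GRCm38.p6, the build of mm10), from 250 bases before to 50 after the start site, were matched for 9 of the 10 genes, all but Cryab. The start site lay within 16 bases of the deposited gene end for 8 of the 9. For Crybb2 it lay 1351 bases away, so that window may not be the promoter of the deposited model. The letters TGCTGAC, the core of the sites bound by Maf proteins, which are lens regulators, were found in 5 of the 9 windows on either strand: Cryaa, Cryba1, Cryba4, Crybb1 and Cryga. They occur in 4.67% of 32817 windows of the same length. TATAAA was found in 4 of the 9 (Cryba1, Cryba2, Crybb1 and Crygs) beside 13.6% of all windows, and TATATA in Cryaa and Cryga beside 5.67%. The TATAAA match began at base -30 from the start site in Crybb1, -25 in Crygs and -23 in Cryba1. In Cryba2 it began at -3 and ran across the start site, unlike the other matches. GAANNTTC, the core of the heat shock element, was found in none of the 9 beside 7.86%. The TATA spellings can overlap each other, and in the members neither overlapped the Maf core. These motifs were chosen after the windows were seen, and a match is a description of letters and not a bound site. Below are the bases just before the start site, 5′ to 3′ on the strand of the gene, with matches to the Maf core and to either TATA spelling in capitals.
Cryaa, chr17:31677811-31677930, plus strand: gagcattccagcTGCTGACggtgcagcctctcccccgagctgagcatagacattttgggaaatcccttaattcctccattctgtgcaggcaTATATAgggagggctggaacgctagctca
Cryba1, chr11:77725294-77725413, minus strand: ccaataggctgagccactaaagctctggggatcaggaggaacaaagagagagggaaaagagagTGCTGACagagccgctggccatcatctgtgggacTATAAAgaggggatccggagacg
Crybb1, chr5:112255700-112255819, plus strand: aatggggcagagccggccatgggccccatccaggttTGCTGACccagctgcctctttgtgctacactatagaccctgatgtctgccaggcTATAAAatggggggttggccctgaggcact
Cryba4, chr5:112252519-112252768, minus strand: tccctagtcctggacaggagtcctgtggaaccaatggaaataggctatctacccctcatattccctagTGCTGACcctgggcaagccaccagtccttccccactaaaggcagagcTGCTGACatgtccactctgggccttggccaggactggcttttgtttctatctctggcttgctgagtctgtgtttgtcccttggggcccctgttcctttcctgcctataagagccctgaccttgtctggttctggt
Cryga, chr1:65103364-65103613, minus strand: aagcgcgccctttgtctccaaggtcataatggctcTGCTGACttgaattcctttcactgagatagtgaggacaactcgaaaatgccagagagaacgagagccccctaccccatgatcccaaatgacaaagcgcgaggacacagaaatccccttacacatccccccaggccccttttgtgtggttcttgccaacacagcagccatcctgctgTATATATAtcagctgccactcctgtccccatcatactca
Crybb3, chr5:113081585-113081704, minus strand: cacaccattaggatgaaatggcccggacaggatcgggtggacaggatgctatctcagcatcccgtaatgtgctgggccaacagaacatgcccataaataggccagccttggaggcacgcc

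Counted from the start site, the TGCTGAC match began at base -108 in Cryaa, -84 in Crybb1 and -57 in Cryba1. Cryba4 held matches at -182 and -135, and Cryga, which was neither lower nor higher, at -215. The match was therefore present in lower members and in 1 that was not lower. Crybb3, which was not lower, held none in its window, and neither did Cryba2, Crybb2 and Crygs, which were lower. The search took these exact letters only, so a window without a match may still hold a variant of a Maf site.

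Of 13 other crystallin and crystallin-related genes, 10 reached the minimum. Among these 10 the median log2 ratio was -0.14, with 4 lower, 0 higher and 6 neither. The 40% lower stood beside 20.5% of all genes. The lower genes were Crygb, Crygc, Crygn and Aim1l. Crygn, a gamma-crystallin also known from the retina, stood at 12.5 FPKM in the WT-labelled library and 0.638 FPKM in the KO-labelled library. Crygd, Cryge and Crygf were below the minimum, at 0.0946, 0.419 and 0.731 FPKM in the WT-labelled library, and were listed at 0 in the KO-labelled library. With 2 estimated fragments in the WT-labelled library, Crygd allows no statement of a difference. Genes named for crystallins of other animals, which encode enzymes or binding proteins, were neither lower nor higher. Crym, whose protein binds thyroid hormone, was at 36.2 and 28.1 FPKM. The quinone reductase gene Cryz was at 3.08 and 4.32 FPKM and its relative Cryzl1 at 19.3 and 23.4 FPKM. Cryl1, a sugar dehydrogenase gene, stood at 71.2 and 75.7 FPKM. Among the non-lens relatives with beta/gamma folds, Aim1l was lower (5.19 and 0.936 FPKM), while Aim1 (22.9 and 26.5 FPKM) and Crybg3 (3.83 and 4.83 FPKM) were neither.

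Other genes of lens fibres were also measured. Of 18 listed, 11 reached the minimum, with 6 lower, 0 higher and 5 neither and a median log2 ratio of -1.10. The 54.5% lower stood beside 20.5% of all genes. Mip, the lens fibre water channel, stood at 4.03 FPKM in the WT-labelled library and 0.0280 FPKM in the KO-labelled library. Grifin, a lens galectin, stood at 9.88 and 0.10 FPKM. Grifin had the lowest ratio of the list with the pseudocount of 0.1 FPKM, while without it Mip was 143.8 times and Grifin 98.8 times lower, on 3 and 2 estimated fragments in the KO-labelled library. The intermediate filament genes of lens fibres, Bfsp1 (3.54 and 0.813 FPKM) and Bfsp2 (1.58 and 0.211 FPKM), were lower too. Fabp5, a fatty acid binding protein gene of many epithelia and the most expressed gene of the list, stood at 1099 and 1307 FPKM and was neither. The other genes that were neither were Tdrd7 (18.6 and 10.7 FPKM), Lenep (3.21 and 3.78 FPKM), Tmod1 (1.65 and 2.99 FPKM) and Caprin2 (1.74 and 1.74 FPKM).

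Of 20 listed regulators of lens development, 15 reached the minimum, with 4 lower, 1 higher and 10 neither and a median log2 ratio of -0.46. The 26.7% lower is near the 20.5% of all genes. Maf, the Maf family member that drives crystallin genes in lens fibres, stood at 4.42 FPKM in the WT-labelled library and 6.73 FPKM in the KO-labelled library. Pax6, the eye master regulator, stood at 0.700 and 0.483 FPKM, and Hsf4, the heat shock factor of the lens, at 1.21 and 0.851 FPKM. Those 3 genes were neither lower nor higher. Prox1 (1.95 and 0.856 FPKM) and Sox2 (1.23 and 0.331 FPKM) were lower, and the ratio of Sox2 was the lowest among the regulators past the minimum. Sox1 was below the minimum (0.0986 and 0.00477 FPKM). Mafa, better known from pancreatic beta cells, was the higher gene (5.02 and 20.9 FPKM). Meis2 was the most abundant in the WT-labelled library (19.2 and 27.9 FPKM).

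The small heat shock protein family, to which the alpha-crystallins belong, was divided. Of 8 other members listed, 7 reached the minimum, with 3 lower, 1 higher and 3 neither and a median log2 ratio of -0.13. The 42.9% lower stood beside 20.5% of all genes lower and 7.09% higher. Hspb1, which encodes the widely expressed Hsp27-type chaperone, stood at 321.7 FPKM in the WT-labelled library and 103.3 FPKM in the KO-labelled library. Hspb8 stood at 122.5 and 58.1 FPKM, and Hspb7, a muscle member, at 1.14 and 0.00710 FPKM, the lowest ratio past the minimum. The Hspb7 level in the KO-labelled library rests on 1 estimated fragment against 137. The testis member Hspb9 was higher at 0.432 and 1.29 FPKM, on 11 and 39 estimated fragments. By contrast, none of 13 general stress response genes passed the 2-fold rule in either direction, and their median was -0.13. The most abundant of them, the chaperone gene Hsp90ab1, stood at 1203 and 1799 FPKM. Hsp90aa1 lay just inside the limit on the higher side (46.1 and 90.5 FPKM, log2 ratio 0.97), as near to it as Cryab lay on the lower side.

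**Figure D4:**
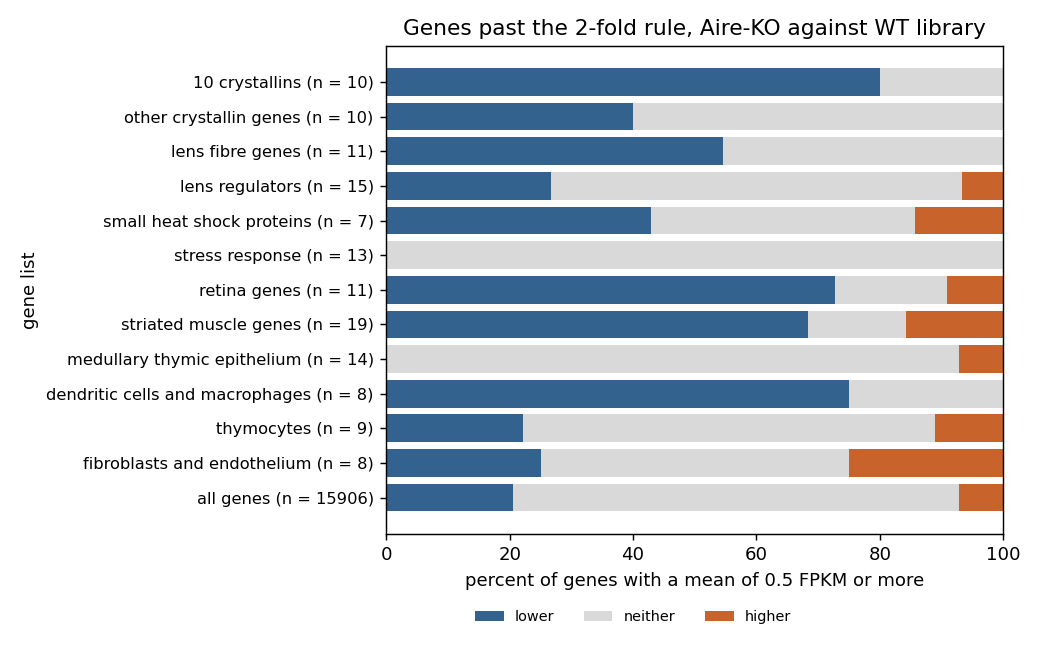
Percent of genes that were lower (blue), neither (grey) or higher (orange) in the KO-labelled library by the 2-fold rule, for each gene list and for all genes averaging at least 0.5 FPKM. The crystallins have 8 of 10 lower, beside 20.5% of all genes.

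Marker genes of non-epithelial cells of the thymus were also measured. Of 8 dendritic cell and macrophage genes past the minimum 6 were lower and 0 higher (median log2 ratio -1.86), 75.0% beside 20.5% of all genes. The 12 genes of that list summed to 727.9 FPKM in the WT-labelled and 474.6 FPKM in the KO-labelled library. The most expressed, the lysozyme gene Lyz2, stood at 675.5 and 436.4 FPKM and was neither, as was Cd68 (24.1 and 33.1 FPKM). Without Lyz2 the sum was 52.3 and 38.2 FPKM. Cd209a, a dendritic cell lectin gene, stood at 2.91 FPKM in the WT-labelled library and was listed at 0 in the KO-labelled library. Of 9 thymocyte genes 2 were lower and 1 higher (median -0.22), and the 22.2% lower is near that of all genes. Their list summed to 55.1 and 72.2 FPKM, a direction set by Tcf7 (21.6 and 51.6 FPKM), which encodes a T cell transcription factor. Without Tcf7 the sum was 33.5 and 20.6 FPKM, and the lowest ratio was that of the T cell receptor subunit gene Cd3g (7.63 and 2.73 FPKM). Of 8 fibroblast and endothelial genes 2 were lower and 2 higher (median -0.06), and the 25.0% lower is near that of all genes. The lower genes were endothelial, Pecam1 (7.28 and 2.65 FPKM) and Cdh5 (2.62 and 0.222 FPKM), and the endothelial gene Kdr was below the minimum (0.465 and 0.0384 FPKM). The higher genes were the fibroblast genes Dcn (34.5 and 85.9 FPKM) and Lum (3.31 and 7.999 FPKM). That list summed to 74.6 and 121.4 FPKM, and without Dcn to 40.1 and 35.5 FPKM. No listed thymocyte, fibroblast or endothelial marker was at 0 in either library. The part of these values in the crystallin values was not tested.

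The authors' deposited table lists p-values and q-values, which compare these 2 libraries and not 2 genotypes. Crybb2 was the only crystallin of the 10 with q of 0.05 or less in the authors' deposited table (q = 0.0155). The authors' deposited table gave q = 0.125 for Cryba1, q = 0.539 for Cryba2 and q = 0.789 for Cryaa, although the Cryaa values differed 313 times.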

How the data were processed

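The submitters' processing notes name TopHat2, Cuffdiff and the genome build mm10. Tool versions, annotation and scaling were not given in the sources used here. The authors deposited gene and isoform tables with FPKM values for 1 library per genotype, and p-values and q-values of their own. Ratios were log2 of (FPKM + 0.1) in the KO-labelled over the WT-labelled library unless stated to be without a pseudocount. The pseudocount understates differences of low genes. For 5 rows without an estimate because of high coverage, values were treated as missing. Exact zeros are described as listed at 0.

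Depth came from genes with 1 isoform of 600 to 2000 bp, with lengths from GENCODE M21 through its RefSeq links. Up to 4 fragments, 82.4% of 472 values in the WT-labelled library and 78.8% of 562 in the KO-labelled library lay within 0.1 of a whole number. The step was fitted to these values, so these shares do not test it, and totals are approximate. Intervals are exact Poisson for levels and exact conditional binomial for ratios; the interval of the difference between 2 genes is a normal approximation. The labels name no molecular identifiers, so PCR copies may be counted, and intervals and the floor of 3 counts cover counting error only. The scripts (Python 3.11.15, scipy 1.17.1) were tested on simulated data.

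The 10 members and the gene lists were chosen with earlier results of these data known. Named are all members, some of the genes beside a member, and textbook crystallin regulators. Of each other list, the most expressed gene and the lowest and highest past 2-fold are named. The lowest and highest were taken among genes past the minimum, with the pseudocount. Further genes of the lists (Mip, Bfsp1, Bfsp2, Tdrd7, Lenep, Tmod1, Caprin2, Hspb8, Hsp90aa1, Myl1, Des, Cd68, Pecam1, Lum, Kdr) and the neighbours shown were picked after their values were seen.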

Additional observations from a re-analysis of the deposited data

How the results depend on the processing

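The count of 8 lower and 0 higher crystallins was the same with a pseudocount of 0.01 or 1 FPKM, with isoform sums, with the KO-labelled library rescaled to a median log2 ratio of 0, without a minimum, and with the values of 0 raised to 3 fragments (chosen after seeing the data). With a minimum mean of 2 FPKM, 7 of 8 were lower, and without Cryab (chosen after seeing the data) 7 of 9. At 4-fold the count was 5, since the stricter rule leaves out Cryab, Cryba4 and Crybb1. The median log2 ratio of -3.04 became -3.08 with a pseudocount of 0.01 FPKM, -1.99 with 1 FPKM, -3.09 after rescaling and -4.13 without Cryab. Of 40 values of single members under the 4 planned settings (both pseudocounts, isoform sums and rescaling), 5 moved, all with a pseudocount of 1 FPKM, and 35 lay within their counting interval or limit or within 0.005 of the reported value. Among the latter, the ratio of Crybb3, which was not called, changed sign from 0.04 to -0.01 after rescaling. None of the called values changed sign. No paired analysis was possible because each genotype has 1 library. Depth leaves Cryba1 and Crybb2, listed at 0, with a limit and no ratio, and the ratios of Crygs and Cryaa rest on 1 and 6 fragments.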

Other observations

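Retina genes share the eye with the crystallins, and striated muscle expresses Cryab. Of 22 retina genes listed, 11 reached the minimum, with 8 lower, 1 higher and 2 neither and a median log2 ratio of -1.79. The 72.7% lower stood beside 20.5% of all genes lower and 7.09% higher. Aipl1, a photoreceptor chaperone gene, stood at 8.93 FPKM in the WT-labelled library and 0.0132 FPKM in the KO-labelled library, on 1 estimated fragment. Rgr, an opsin gene of the retinal pigment epithelium, was the higher gene, at 1.68 and 6.50 FPKM. Rom1, a photoreceptor disc protein gene and the most expressed of the list, stood at 16.8 and 17.0 FPKM.

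Of 20 striated muscle genes listed, 19 reached the minimum, with 13 lower, 3 higher and 3 neither and a median of -1.40. The 68.4% lower stood beside 20.5% of all genes lower and 7.09% higher. Csrp3, a muscle LIM protein gene, had the lowest ratio (5.93 and 0.330 FPKM), and the myosin light chain gene Mylpf was the most expressed (50.8 and 23.6 FPKM). The higher genes were Ttn, which encodes titin (0.819 and 2.66 FPKM), Myl1 (0.940 and 2.38 FPKM) and Des, which encodes desmin (20.9 and 43.4 FPKM). No cause of these differences was tested.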
